A study of Gallus gallus with 25 samples.

Results

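Small squared domains (SSDs) are the shorter contact domains of chicken lampbrush chromosomes. They were defined here as the domains of the manually refined LBC type 1 list whose length did not exceed the N50 of that list, and 643 of its 873 domains met this rule. The N50, 1344 kb, is the length at which the lengths, summed from the longest domain down, pass 50% of the total. The other 230 domains, all longer, are the large unstructured domains (LUDs) to which the SSDs were compared. The members were chosen by length in this 1 list, so their lengths and the order of short and long domains in it are given as a description. Over all 5 deposited lists the series holds 6475 domains.

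The contacts came from single-nucleus Hi-C, in which DNA ends that lie close to each other in a fixed nucleus are ligated and sequenced in pairs, applied to 25 oocyte nuclei of wild-type (WT) chicken. The authors pooled these nuclei into 4 maps: post-LBC type 1 (4 nuclei), post-LBC type 2 (1 nucleus), LBC type 2 (6 nuclei) and LBC type 1 (14 nuclei). LBC stands for the lampbrush chromosome stage, with oocytes 1 to 2 mm in diameter, and post-LBC for the later stage, with oocytes 4 to 7 mm in diameter, while the type was assigned from library quality control, type 2 nuclei having the larger share of contacts between chromosomes. The authors describe the domain boundaries of LBC type 2 as grouped much like those of chicken fibroblasts. Averaged around binding sites of the protein CTCF, the contacts of type 2 nuclei looked to them like a mixture of type 1 and fibroblast contacts. Against simple contamination they cite microscopy of the samples. They also cite compartment strength, the preference for contacts within the same class of chromatin. In type 2 nuclei it differed from that of computed mixtures of fibroblast and type 1 data. They call the origin of the types unclear. A somatic cell in the sample seemed unlikely to them, and an earlier, pre-lampbrush stage more plausible for LBC type 2. Post-LBC type 2 they regard as likely later than post-LBC type 1. Type 1 nuclei alone were used in their main domain analyses. Each map has a list of domains called automatically, and LBC type 1 also has a list refined by hand, all with starts and ends in bp on the chicken assembly ASM2420605v2.

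These lists contain no contact counts, scores or values of single nuclei, so the depth behind a boundary is unknown from them and no spread between nuclei or hens could be measured. Intervals below are 95% Wilson intervals and cover counting error only. The domains of 1 map are not replicates of a condition, and neighbours share a border. The maps also differ in the number of nuclei, and its part in the differences between maps was not tested.

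Lampbrush chromosomes are the giant, extended chromosomes of growing oocytes arrested in the diplotene stage of meiosis. Their chromatin is gathered in a row of compact granules, the chromomeres, from which loops of intensely transcribed chromatin extend sideways. Later in oocyte growth the loops retract and the chromosomes shorten. In a Hi-C map, a contact domain is a stretch of chromosome whose loci contact each other more often than they contact loci beyond its boundaries. The chicken karyotype combines a few large macrochromosomes with many small microchromosomes, and the female carries the sex chromosomes Z and W.

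The SSDs made up 73.7% of the manual domains (70.6% to 76.5%) and 51.0% of their summed length, 505.3 of 990.1 Mb. Their median length was 784 kb, with quartiles of 512.5 and 1024 kb. The lengths were spread broadly below the threshold: 81 SSDs were over 200 and up to 400 kb long, 114 up to 600 kb, 126 up to 800 kb, 125 up to 1000 kb, 118 up to 1200 kb and 71 up to 1344 kb. A further 8 were no longer than 200 kb, the lower limit of the automatic lists. The shortest SSD was the first domain of chromosome 19, chr19:800001-880000, 80 kb long. Its middle lay in no domain of any of the 4 automatic lists.

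No gap in length set the SSDs apart at the threshold. Exactly 1344 kb long were 10 SSDs, among them the adjoining domains chr1:32000001-33344000 and chr1:33344001-34688000. The next shorter SSD had 1336 kb. The shortest LUDs were chr6:24540001-25888000, with 1348 kb, and chr1:104896001-106256000, with 1360 kb. Within 50 kb below the threshold lay 32 SSDs and within 50 kb above it 13 LUDs. Of the SSDs, 219 had a start or an end off the 16 kb grid of the automatic lists, 34.1%.

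SSDs were present on every chromosome of the list, but in very different proportions. On the microchromosomes, chromosomes 11 and above, 212 of 228 domains were SSDs, 93.0% (88.9% to 95.6%), and they held 83.6% of the domain length. On chromosomes 6 to 10 they were 128 of 148 domains, 86.5%, with 72.6% of the length. On the macrochromosomes 1 to 5 they were 278 of 442 domains, 62.9% (58.3% to 67.3%), with 40.3% of the length. Z had the lowest share, with 16 SSDs among 46 domains, 34.8% (22.7% to 49.2%), and 19.1% of the length. All 9 domains listed for W were SSDs.

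Macrochromosomes differed among themselves. SSDs were 39 of 87 domains on chromosome 2 and 37 of 65 on chromosome 4, against 74 of 101 on chromosome 3 and 42 of 57 on chromosome 5. Chromosomes 15, 19, 20, 22, 23, 26, 27, 28, 33 and W had no LUD at all. The median SSD length was 632 kb on the microchromosomes, 784.5 kb on chromosomes 6 to 10, 912 kb on the macrochromosomes, 1000 kb on Z and 992 kb on W. The lowest chromosome medians were 210 kb on chromosome 33, with 5 SSDs, and 350 kb on chromosome 27, with 13.

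**Figure D1:**
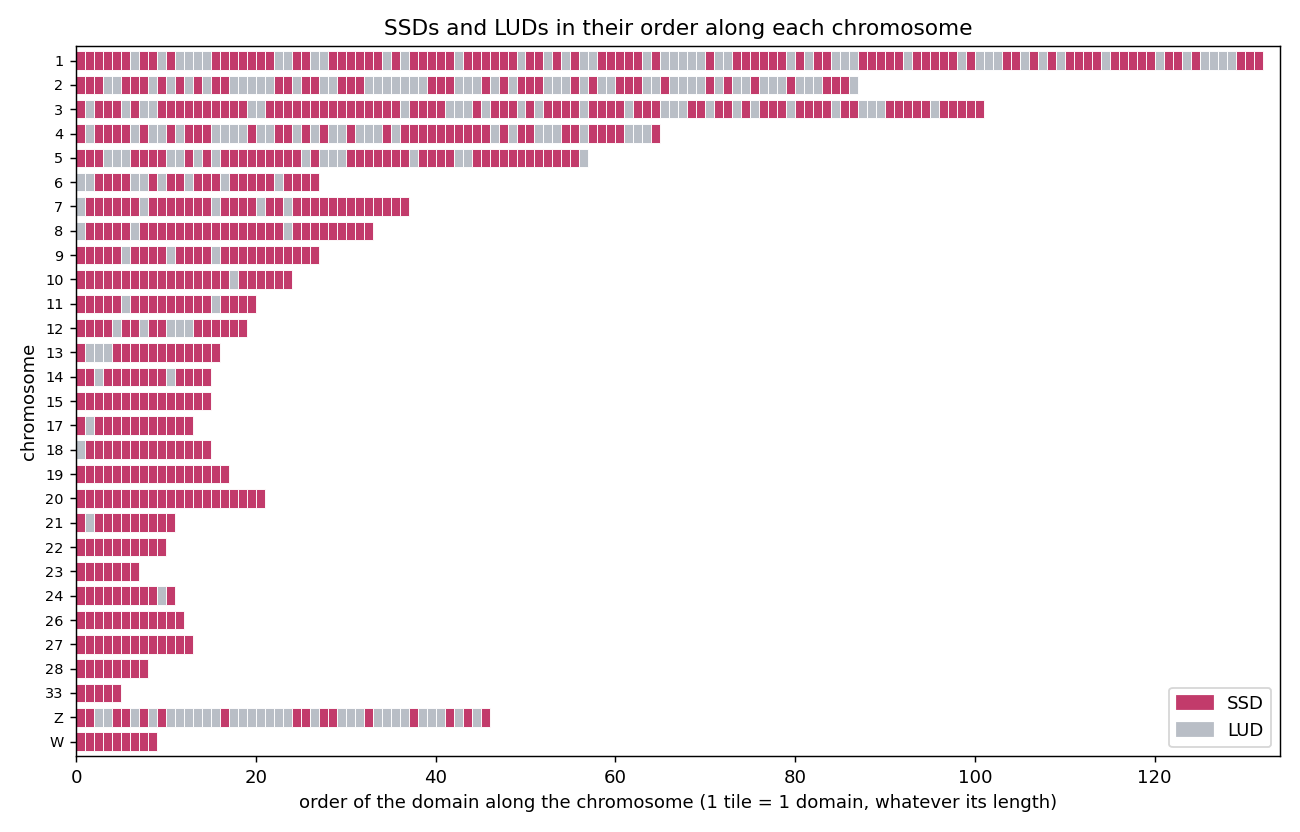
Each row is a chromosome and each tile a domain of the manually refined LBC type 1 list, in its order along the chromosome and whatever its length. SSDs (dark) fill 10 chromosomes alone, whereas on Z they stand as single domains or pairs among LUDs (grey).

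Most SSDs were neighbours of other SSDs. SSDs were also 73.7% of all manual domains, and 485 of all 844 borders of the list lay between SSDs. With such a share many SSDs adjoin in any order, and whether they cluster was not tested. Of the 643, 381 (59.3%) had an SSD on both sides, 164 (25.5%) had an SSD on one side and a LUD on the other, and 46 (7.15%) lay between LUDs. The remaining 52 were the first or last domain of their chromosome, 44 of them next to an SSD and 8 next to a LUD. SSDs with SSDs on both sides had a median length of 768 kb, against 928 kb for those between LUDs. Of the 485 borders between neighbouring SSDs, 361 (74.4%) had the domains touching without a gap, 88 (18.1%) had a gap and 36 (7.42%) an overlap. Over all 844 borders these shares were 67.8%, 22.4% and 9.83%. Gaps had a median of 27.5 kb, but 4 of them exceeded 1000 kb, on chromosomes 1, 28 and W, the widest 2624 kb on W.

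Counted without regard to such gaps, the SSDs formed 158 runs uninterrupted by a LUD. Of these runs, 54 were a single SSD, 24 a pair and 80 had 3 or more SSDs. The 48 runs of 5 or more held 428 SSDs, 66.6% of all, and the 17 runs of 10 or more held 229. How far such runs follow from the 73.7% share of SSDs among all manual domains was not tested. On the microchromosomes 190 of 212 SSDs were in runs of 5 or more, on chromosomes 6 to 10 it was 100 of 128, and on the macrochromosomes 129 of 278. No run on Z was longer than 2 SSDs and none on chromosome 2 was longer than 3, although chromosome 2 had 39 SSDs. The longest series of consecutive LUDs, 7, was on these same chromosomes.

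The longest run was chromosome 20 in full, 21 SSDs from 1312001 to 15312000, with lengths between 225 and 1216 kb and a median of 640 kb. Runs of 17 SSDs were found on chromosome 10, chr10:1984001-14592000, and as all of chromosome 19, chr19:800001-11296000. Chromosome 8 had a run of 16, chr8:9888001-21900000. The run that held the most sequence was on a macrochromosome: 15 SSDs on chromosome 3, chr3:22336001-37792000, covered 15456 kb and ranged from 672 to 1294 kb, with a median of 1026 kb. In runs of 5 or more, SSDs had a median of 743 kb, against 912 kb for SSDs standing alone. On the macrochromosomes and Z alone, where chromosome class differs less, these medians were 864 and 944 kb.

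Of the 58 first and last domains of the list, 52 were SSDs, 89.7% (79.2% to 95.2%), against 73.7% of all its domains, and they had a median length of 577.5 kb. This count includes the chromosomes that have few or no LUDs. On chromosomes 1 to 5 and Z it was 10 of 12, 83.3% (55.2% to 95.3%), an interval that includes the 60.2% of all 488 domains there, and the exceptions were the last domains of chromosomes 2 and 5. From the chromosome end inwards, chromosome 1 began with 6 SSDs, and the far end of chromosome 3 had 5 before the first LUD.

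On chromosomes 1 to 5 and Z, the share of SSDs among domains within 2 Mb of the outermost boundary of any list was 23 of 30, 76.7% (59.1% to 88.2%), with a median SSD length of 592 kb. The share over all 488 domains, 60.2%, lies inside this interval. Between 10 and 20 Mb it was 43 of 79, 54.4% (43.5% to 65.0%), and beyond 40 Mb 90 of 156, 57.7%, both with SSD medians above 900 kb. Position was not used by the length rule, so it was tested. Of 294 SSDs on these chromosomes, 41 lay within 5 Mb of an end, 13.9% (10.4% to 18.4%), against 17 of 194 LUDs, 8.76% (5.54% to 13.6%), where the share over all 488 domains was 11.9%. The odds ratio was 1.69 and the difference did not pass the test (two-sided Fisher's exact test, p = 0.0881). Of domains with the same middle, a longer one has its nearer edge closer to the end, and of domains with the same nearer edge, a shorter one has its middle closer, so neither measure is free of length. With the middle of the domain in place of its nearer edge, 39 of 294 SSDs and 14 of 194 LUDs lay within 5 Mb (exact p = 0.0379). With an SSD threshold of 1 Mb the counts were 32 of 178 and 26 of 310 (exact p = 0.00217).

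**Figure D2:**
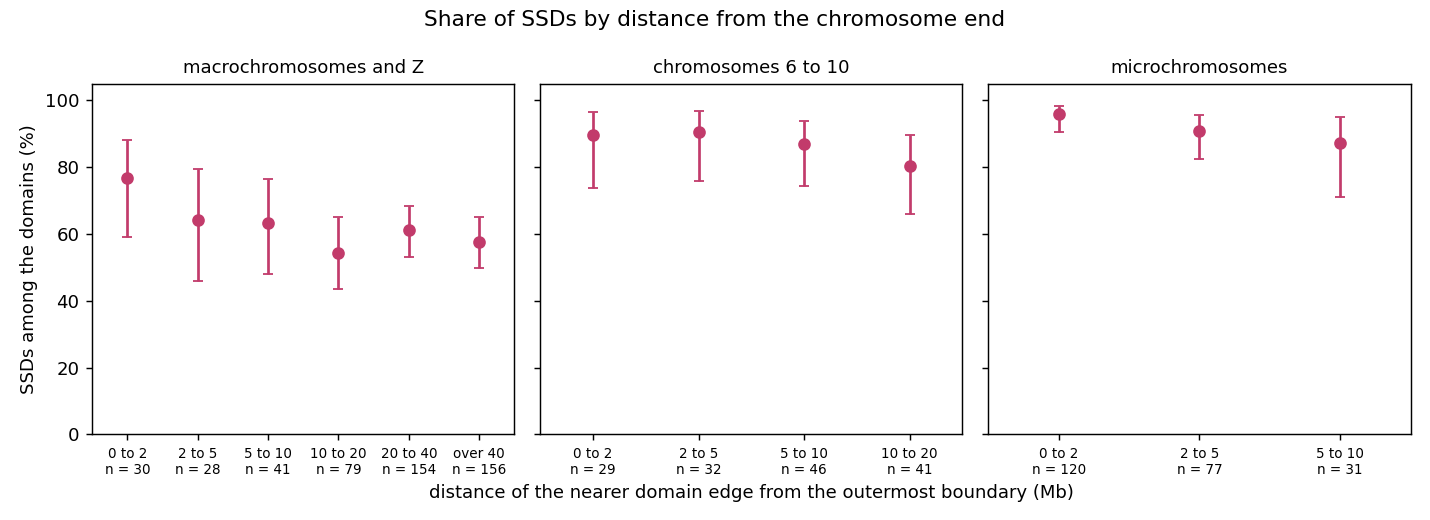
Points are the percentage of SSDs among the manual domains of a distance class, with 95% Wilson intervals, against the distance of the nearer domain edge from the outermost boundary in Mb. On the macrochromosomes and Z the share was 76.7% within 2 Mb, with intervals that overlap those of all classes further in, and on the other chromosomes it was high throughout.

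The SSDs were then followed into the automatic lists. Chromosomes 33 and W are only in the manual list, which left 629 SSDs and 230 LUDs on 27 shared chromosomes. A domain was called single where 1 automatic domain had both ends within 80 kb of its own. It was called joined where no automatic boundary lay inside it (over 80 kb from both ends) and the automatic domain over its middle passed at least 1 end by more than 80 kb. It was called divided where both ends had an automatic boundary within 80 kb and at least 1 further boundary lay inside, and redrawn where a boundary lay inside and at least 1 end had none within 80 kb.

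Most SSDs were found again as single domains in post-LBC type 1. Of 629, 369 were single, 58.7% (54.8% to 62.4%), where the share over all 859 manual domains was 47.1%. Another 147 were joined, 23.4% (20.2% to 26.8%), against 17.1% of all domains. Only 32 were divided, 5.09% (3.63% to 7.09%), against 15.1% of all domains, and 79 were redrawn, 12.6% (10.2% to 15.4%), against 20.4% of all domains. The 2 that remained met none of these definitions.

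The other maps matched the SSDs less often. In post-LBC type 2, the map of 1 nucleus, 147 SSDs were single, 23.4% (all domains 18.2%), 197 were joined, 31.3% (all domains 23.1%), 54 were divided, 8.59% (all domains 15.1%), and 229 were redrawn, 36.4% (all domains 43.4%). In LBC type 2 only 82 were single, 13.0% (10.6% to 15.9%, all domains 9.55%), 128 were joined, 20.3% (all domains 14.9%), 64 were divided, 10.2% (all domains 14.1%), and 354, 56.3% (52.4% to 60.1%, all domains 61.4%), were redrawn. These counts depended on the tolerance. With 20, 40 and 160 kb in place of 80 kb, 30, 46 and 130 SSDs were single in LBC type 2 and 25, 33 and 111 were divided. With 20 and 40 kb, 60 and 92 were single and 20 and 29 divided in post-LBC type 2, and with 20 kb, 21 were divided in post-LBC type 1. Taken one by one, the ends gave the same order of maps: 79.2% of the 1258 SSD ends had a boundary within 80 kb in post-LBC type 1, 56.0% in post-LBC type 2 and 47.8% in LBC type 2.

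The automatic list of LBC type 1, which is the same map without the manual step and so no independent measure, had 272 of the SSDs as single domains, 43.2% (39.4% to 47.1%, all domains 32%). It joined 69, 11.0% (all domains 8.03%), divided 184, 29.3% (25.8% to 32.9%, all domains 40.4%), and redrew 102, 16.2% (all domains 19.3%). Of the 184 divided SSDs, 124 were single in post-LBC type 1 and 26 were divided there too. The 124 had a median length of 1056 kb. Of the 272 SSDs single in the automatic LBC type 1 list, 176 were single in post-LBC type 1, 74 were joined there, 1 was divided and 21 were redrawn.

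By definition, both ends of a single SSD lay within 80 kb of its counterpart, which bounds the distances given here. The median distance of an end from the automatic end was 4 kb in post-LBC type 1, 16 kb in post-LBC type 2, 16 kb in LBC type 2 and 0 kb in the automatic LBC type 1 list. Both ends were within 16 kb, 1 bin of the grid, for 242 of the 369 single SSDs of post-LBC type 1 (65.6%), 57 of 147 in post-LBC type 2 and 30 of 82 in LBC type 2. The matching domain of post-LBC type 1 was longer than the SSD in 145 cases, shorter in 129 and of equal length in 95.

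SSDs were set against LUDs in the 3 maps that had no part in the choice. SSDs were more often single than LUDs in post-LBC type 1 (58.7% of 629 against 15.7% of 230, adjusted p = 2.08e-30), in post-LBC type 2 (23.4% against 3.91%, adjusted p = 7.61e-13) and in LBC type 2 (13.0% against 0 of 230 LUDs, up to 1.64%, adjusted p = 3.29e-12). These are two-sided Fisher's exact tests with Benjamini-Hochberg adjustment over 9 tests, of single, divided and joined shares in 3 maps. They count domains as independent, although neighbours share a border, and both groups were split by length. Of the 230 LUDs, 140 were too long to be single in LBC type 2, so their share there followed from length. Fewer SSDs than LUDs were divided, 5.09% against 42.6% in post-LBC type 1, 8.59% against 33.0% in post-LBC type 2 and 10.2% against 24.8% in LBC type 2 (same exact tests, adjusted p = 3.18e-36, 1.04e-16 and 2.16e-07). With a tolerance of 20 kb the last of these differences was -2.98 percentage points, SSDs minus LUDs, and did not pass the test (exact test, adjusted p = 0.0732). The length rule bears on all these divided shares, since an inner boundary needs room. Among SSDs alone, 0% of those up to 500 kb and 14.0% of those above 1000 kb were divided in post-LBC type 1.

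Length itself bounds these comparisons. The longest automatic domain had 1888 kb in post-LBC type 1, 1920 kb in post-LBC type 2 and 1440 kb in LBC type 2, so that 73, 71 and 140 of the 230 LUDs were too long to be single there, and a longer domain has more room for an inner boundary. No SSD was out of reach in this way. Without the LUDs that were out of reach, the 6 differences in single and divided shares kept their direction and passed the test. Of the remaining LUDs, 36 of 157 were single in post-LBC type 1, 9 of 159 in post-LBC type 2 and 0 of 90 in LBC type 2. These LUDs were still longer than every SSD, so the tests of single and divided shares do not separate length from other traits. A joined domain must be shorter than the automatic domain over it, which only 139 LUDs in post-LBC type 1, 143 in post-LBC type 2 and 24 in LBC type 2 could be. The length rule thus bears directly on the joined counts of 147, 197 and 128 SSDs against 0, 1 and 0 LUDs in these maps, and no p is given for them. Among the longest SSDs, those of 1000 to 1344 kb, 14.0% were divided in post-LBC type 1, 18.3% in post-LBC type 2 and 23.1% in LBC type 2. Single were 60.8%, 19.4% and 2.15% of them. What else than length sets SSDs and LUDs apart in these counts was not tested.

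**Figure D3:**
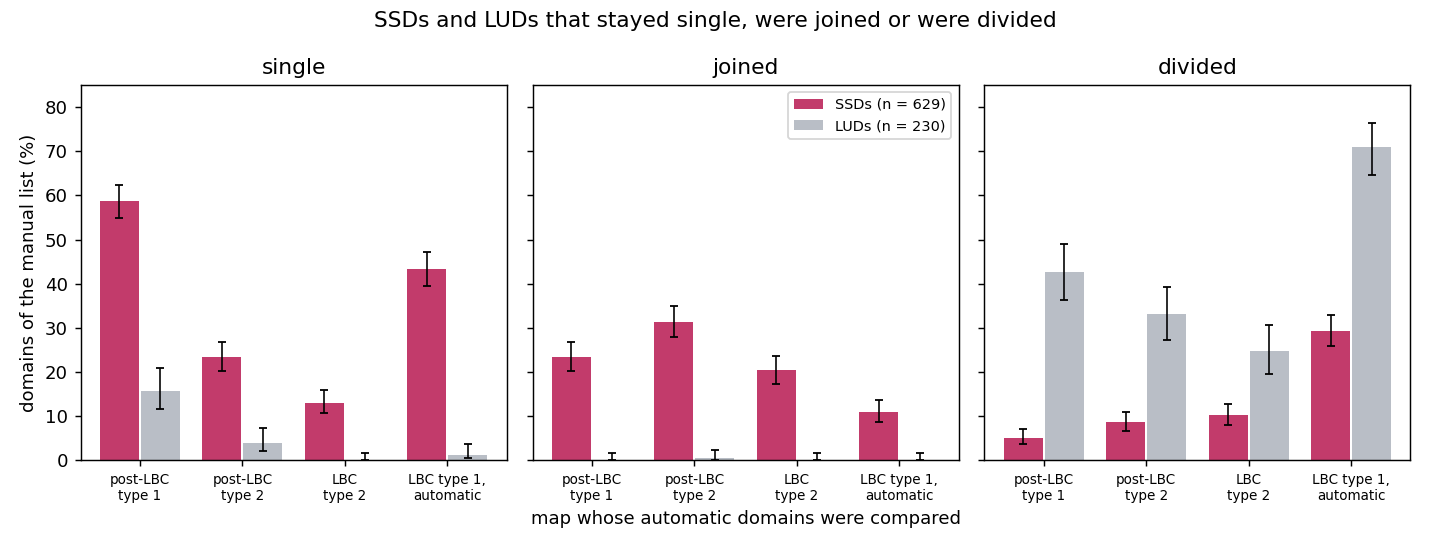
Bars are the percentage of 629 SSDs (left of each pair) and 230 LUDs (right) that stayed single, were joined or were divided in each automatic list, with 95% Wilson intervals. SSDs were single most often in post-LBC type 1, 58.7%, and least often in LBC type 2, 13.0%.

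Among the SSDs themselves, the shortest were the ones most often joined. Of the 146 SSDs of up to 500 kb, 78 were joined in post-LBC type 1, 53.4% (45.3% to 61.3%). The share was 29.3% of the 133 between 500 and 750 kb, 12.8% of the 164 between 750 and 1000 kb and 4.84% (2.57% to 8.94%) of the 186 above 1000 kb. Post-LBC type 2 and LBC type 2 had the same order, with 66.4% and 63.7% joined in the shortest class and 6.99% and 0.538% in the longest. Division was the fate of the longer SSDs: 26 of the 32 SSDs divided in post-LBC type 1 and 43 of the 64 divided in LBC type 2 were above 1000 kb. Both definitions depend on length. A joined SSD must be shorter than the automatic domain over it, and a divided one needs room for an inner boundary. The part of these limits in the order of the classes was not tested.

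Staying single followed length differently in each map. The share in post-LBC type 1 was highest, 70.1% (62.7% to 76.6%), between 750 and 1000 kb, and still 60.8% (53.6% to 67.5%) above 1000 kb. The share in LBC type 2 was highest, 27.8% (20.9% to 36.0%), between 500 and 750 kb and only 2.15% (0.839% to 5.40%) above 1000 kb, which is 4 of 186. Post-LBC type 2 had between 19.4% and 29.9% single in all 4 length classes. In the automatic LBC type 1 list it was 72.2% between 500 and 750 kb and 12.4% above 1000 kb. The median length of all automatic domains was 864 kb in post-LBC type 1, 688 kb in post-LBC type 2, 608 kb in LBC type 2 and 592 kb in LBC type 1.

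**Figure D4:**
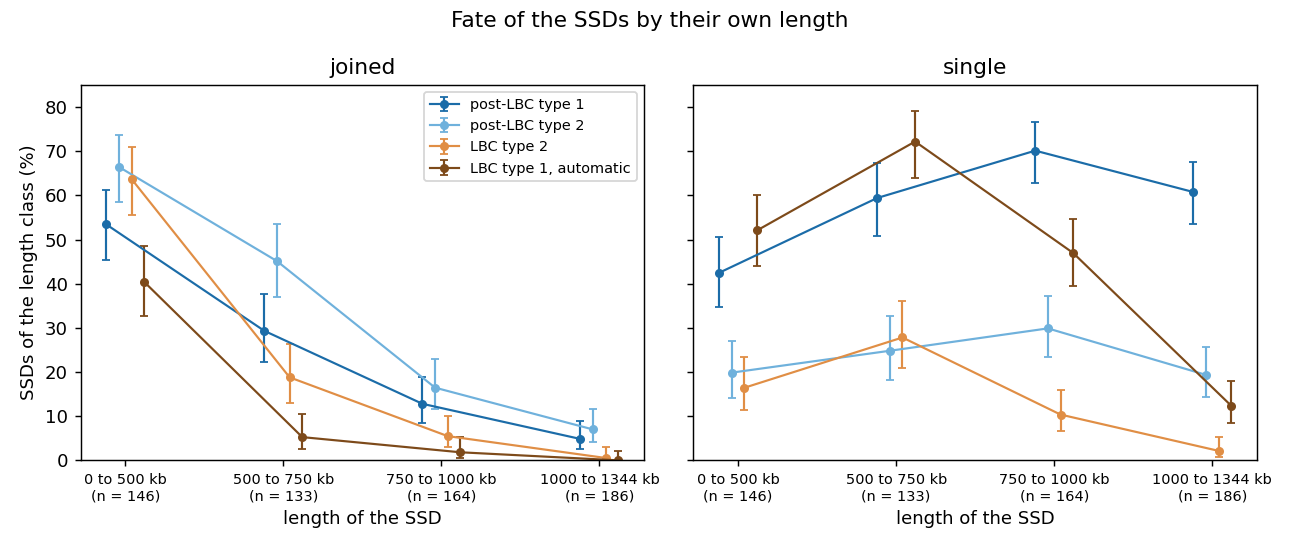
Points are the percentage of the SSDs of a length class that were joined (left) or single (right) in each automatic list, with 95% Wilson intervals. The joined share was lower in each longer class in all 4 lists, and above 1000 kb the single share was 60.8% in post-LBC type 1 and 2.15% in LBC type 2.

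The shares also varied between classes of chromosomes, with no test made. In post-LBC type 1, 104 of 128 SSDs of chromosomes 6 to 10 were single, 81.3% (73.6% to 87.1%), against 160 of 278 on the macrochromosomes, 57.6% (51.7% to 63.2%), and 101 of 207 on the microchromosomes, 48.8% (42.1% to 55.6%). The microchromosomes had the most joined SSDs, 80 of 207, 38.6% (32.3% to 45.4%), against 46 of 278 on the macrochromosomes, 16.5% (12.6% to 21.4%). Of the 16 SSDs of Z, 4 were single, 7 were joined and 5 were redrawn. The SSDs of the microchromosomes were also the shorter ones, and the part of length in their joined share was not tested. Chromosomes at the extremes, picked after their values were seen, were chromosome 9 with 22 of 24 SSDs single and chromosome 27 with 12 of 13 joined. On chromosome 9, only 4 SSDs were single in post-LBC type 2 and 5 in LBC type 2, and 15 were in the automatic LBC type 1 list. On chromosome 27, 9 SSDs were joined in post-LBC type 2, 11 in LBC type 2 and 10 in the automatic LBC type 1 list as well.

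SSDs in long runs and SSDs standing alone had shares whose intervals overlapped. Of the 414 in runs of 5 or more, 247 were single in post-LBC type 1, 59.7% (54.9% to 64.3%), against 31 of the 54 that stood alone, 57.4% (44.2% to 69.7%). Joined were 108 of 414 in the long runs, 26.1% (22.1% to 30.5%), and 8 of 54 that stood alone, 14.8% (7.70% to 26.6%), where SSDs are also longer. Among SSDs of 500 to 1000 kb only, 21.1% of 190 in long runs and 16.7% of 24 standing alone were joined, with intervals that overlap. The 46 SSDs between LUDs were single in 26 cases in post-LBC type 1, 14 in post-LBC type 2 and 6 in LBC type 2.

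Borders between neighbouring SSDs were counted as kept where an automatic boundary lay within 80 kb. Of 473 such borders, 377 were kept in post-LBC type 1, 79.7% (75.8% to 83.1%), where 79.1% of all 832 borders between manual domains were. The count was 256 in post-LBC type 2, 54.1% (49.6% to 58.6%, all borders 57.8%), 225 in LBC type 2, 47.6% (43.1% to 52.1%, all borders 48.9%), and 406 in the automatic LBC type 1 list, 85.8% (82.4% to 88.7%, all borders 85.8%). In each list the interval of the borders between SSDs included the share of all borders. Between SSDs that were both no longer than 500 kb, 24 of 51 borders were kept in post-LBC type 1, 47.1% (34.1% to 60.5%), and between SSDs both over 1000 kb, 55 of 60, 91.7% (81.9% to 96.4%). These counts were 15 of 51 and 31 of 60 in post-LBC type 2, and 15 of 51 and 29 of 60 in LBC type 2. The automatic LBC type 1 list, of the same map as the SSDs, also kept fewer borders between short SSDs. It kept 30 of 51, 58.8% (45.2% to 71.2%), and 56 of 60, 93.3% (84.1% to 97.4%). The part of the length limits of the automatic lists in these counts was not tested.

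Joining took in a whole neighbour in only part of the cases. Of the 147 SSDs joined in post-LBC type 1, 85 (57.8%) shared their automatic domain with a whole neighbouring SSD and none with a whole LUD. For 52 the automatic domain passed an end without reaching the middle of any other manual domain, and for 10 it held the middle of a neighbour but not the whole of it. A whole SSD was taken in for 102 of 197 in post-LBC type 2 and for 41 of 128 in LBC type 2. The joined domains had a median length of 960, 960 and 712 kb in these maps, over SSDs with medians of 486, 512 and 389 kb.

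Stretches in which 1 automatic domain replaced a set of consecutive whole SSDs, with both outer ends within 80 kb, are the strictest form of joining. There were 34 in post-LBC type 1, holding 71 SSDs, 31 in post-LBC type 2, holding 70, and 14 in LBC type 2, holding 31. The automatic LBC type 1 list had 12, holding 25. Most replaced a pair of SSDs, 31 of the 34 in post-LBC type 1. Microchromosomes, with 207 of the 629 SSDs, held 24 of these 34 stretches, 16 of the 31 in post-LBC type 2 and 10 of the 14 in LBC type 2. In the automatic LBC type 1 list they held 10 of the 12. The SSDs of the microchromosomes were also the shorter ones, and the part of length in these counts was not tested.

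The stretches with the most SSDs in post-LBC type 1 included chr27:2208001-3312000, in which a domain of 1104 kb replaced SSDs of 283, 425 and 400 kb, and chr27:5280001-6272000, with SSDs of 450, 350 and 225 kb. In post-LBC type 2, chr3:111040001-112336000 replaced 4 SSDs of 486, 190, 400 and 302 kb at the far end of chromosome 3, and chr26:704001-2000000 replaced 4 of 523, 227, 275 and 275 kb. Both of these domains were 1296 kb long. In LBC type 2, chr19:6528001-7392000 took in SSDs of 384, 302 and 225 kb, and chr20:1888001-2736000 SSDs of 325, 250 and 225 kb.

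The stretches differed from map to map. Over the 4 lists there were 71 distinct stretches, of which 56 were replaced in 1 list only, 11 in 2 lists, 3 in 3 lists and 1 in all 4. The last was the start of chromosome 26, where a domain of 688 kb, chr26:32001-720000, replaced SSDs of 343 and 350 kb in post-LBC type 1, LBC type 2 and LBC type 1, and a domain of 672 kb did so in post-LBC type 2. Replaced as a whole in both post-LBC maps and in neither LBC map were 5 stretches. They lay at chr1:139040001-140128000 (SSDs of 672 and 428 kb), chr10:5216001-6944000 (1125 and 619 kb), chr10:13408001-14592000 (624 and 560 kb), chr17:4144001-5424000 (826 and 455 kb) and chr27:3808001-4736000 (225, 275 and 350 kb), with the coordinates of post-LBC type 1. Some of these SSDs were joined in both automatic LBC lists in another way. They were those of 428 kb on chromosome 1, 455 kb on chromosome 17, and 225 and 350 kb on chromosome 27. The reverse occurred too. Stretches of SSDs of 370 and 410 kb on chromosome 3 and of 250 and 300 kb on chromosome 20 were replaced in both LBC maps and in neither post-LBC map.

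A small set of SSDs kept both ends everywhere. Of 629, 29 were single in all 3 maps other than LBC type 1 (4.61%, 3.23% to 6.54%), 128 in 2, 255 in 1 and 217 in none. No LUD was single in LBC type 2, so these 29 were the only such domains among all 859 manual domains. With the automatic LBC type 1 list included, 22 were single in all 4 lists, with a median of 632 kb, and 4 of these had every end within 16 kb. The 4 were chr8:17136001-18368000 (1232 kb), chr15:7125001-7968000 (843 kb), chr10:17600001-18240000 (640 kb) and chr20:14672001-15312000 (640 kb), the last domain of its chromosome. The SSD on chromosome 8 had the same start in all 4 lists, and its end was at 18368000 in post-LBC type 1, 18352000 in post-LBC type 2, 18384000 in LBC type 2 and 18368000 in LBC type 1. Next came chr5:19024001-19936000 (912 kb), an SSD between LUDs, with all ends within 32 kb, and chr2:960001-2016000 (1056 kb), within 48 kb.

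Joined in all 3 other maps were 57 SSDs, 9.06% (7.06% to 11.6%), with a median length of 350 kb, and 356 were joined in none, with a median of 976 kb. No LUD was joined in post-LBC type 1 or LBC type 2, so the 57 were the only such domains among all 859 manual domains. In LBC type 2 only 24 LUDs were short enough to be joined, so this follows largely from the length rule. Of the 57, 30 were joined in the automatic LBC type 1 list too and 25 were single there. The longest of these 25 was chr11:18768001-19536000, of 768 kb. Its automatic domain in LBC type 1 had the same 768 kb, while it was taken into a domain of 992 kb, chr11:18784001-19776000, in both post-LBC maps and into one of 960 kb in LBC type 2, together with the last SSD of the chromosome, of 288 kb. The next were chr18:9248001-9952000, of 704 kb, which lay in domains of 1088, 848 and 992 kb in post-LBC type 1, post-LBC type 2 and LBC type 2, and chr3:64544001-65184000, of 640 kb, which lay in domains of 1232, 896 and 688 kb. The match of the chromosome 3 SSD in LBC type 1, chr3:64624001-65264000, had both ends 80 kb away, just at the tolerance. Its LBC type 2 domain had the same start and ended at 65312000.

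Of 629 SSDs, 2 were divided in all 3 other maps, 0.318% (0.0872% to 1.15%), and both were divided in the automatic LBC type 1 list as well. No count of LUDs divided in all 3 maps is given here, so the share over all manual domains is not known and the 2 are named as examples only. Taken map by map, 15.1%, 15.1% and 14.1% of all 859 manual domains were divided in post-LBC type 1, post-LBC type 2 and LBC type 2. In chr1:56576001-57888000, of 1312 kb, the inner boundary was at 57264000 in post-LBC type 1, 57312000 in post-LBC type 2, 57248000 in LBC type 2 and 57264000 in LBC type 1. In chr15:5275001-6464000, of 1189 kb, an automatic domain started inside the SSD at 5824001 in post-LBC type 1, 5840001 in LBC type 2 and 5824001 in LBC type 1, and in post-LBC type 2 one ended inside it at 5952000.

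Inner boundaries, whether or not the ends were kept, were much more frequent. At least 1 was found in 111 SSDs (17.6%) in post-LBC type 1, in 283 (45.0%) in post-LBC type 2, in 418 (66.5%) in LBC type 2 and in 286 (45.5%) in the automatic LBC type 1 list. Over all 859 manual domains these shares were higher, 35.5%, 58.6%, 75.4% and 59.7%. Most SSDs with any had 1, and no SSD had more than 3. Inner boundaries were also matched between lists. The share of all automatic boundaries with such a match was not computed. The counts that follow thus do not tell whether inner boundaries are shared more or less often than others. Of the 118 inner boundaries of post-LBC type 1, 56 were found within 80 kb in post-LBC type 2, 51 in LBC type 2 and 63 (53.4%) in the automatic LBC type 1 list. Of the 531 of LBC type 2, 272 were in no other list. Of the 339 of the automatic LBC type 1 list, 25 had a counterpart in all 4 lists, in 23 SSDs. The SSD chr1:33344001-34688000, at the length threshold, was among these, with an inner boundary at 34464000 in LBC type 1.

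The run of 15 SSDs on chromosome 3 shows these fates side by side. Of the 15, 10 were single in post-LBC type 1, 1 was joined, 3 were divided and 1 was redrawn, and 18 automatic domains of that map lay over the run. In post-LBC type 2, 1 was single, the 1248 kb SSD chr3:26208001-27456000, 1 was joined, 2 were divided and 11 were redrawn, over 20 automatic domains. In LBC type 2 none was single, 1 was divided and 14 were redrawn, over 27 automatic domains. The automatic LBC type 1 list, also with 27 domains, had 3 single and 8 divided.

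**Figure D5:**
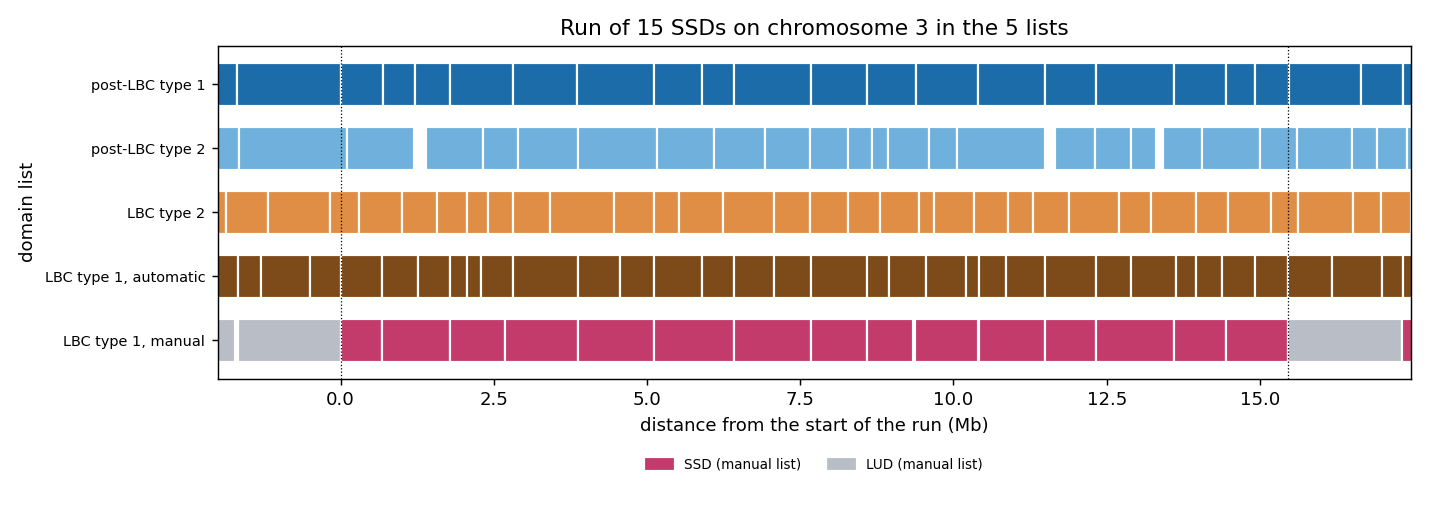
Rows are the 5 domain lists and blocks their domains, drawn to scale against the distance in Mb from the start of the run of 15 SSDs on chromosome 3. Dotted lines mark the ends of the run, within which 18 domains of post-LBC type 1, 20 of post-LBC type 2 and 27 of LBC type 2 lay beside the 15 SSDs.

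On chromosome 20, of 21 SSDs, 8 were single and 10 joined in post-LBC type 1, 4 and 9 in post-LBC type 2, and 2 and 7 in LBC type 2. On chromosome 10, of 17, 11 were single and 6 joined in post-LBC type 1, 5 and 9 in post-LBC type 2, and 5 and 3 in LBC type 2. On chromosome 19, of 17, 12 were single in post-LBC type 1, 9 in post-LBC type 2 and 1 in LBC type 2. On chromosome 8, of 16, the single SSDs numbered 11, 5 and 4 in the same maps. In these 4 runs post-LBC type 1 had fewer automatic domains (17, 14, 14 and 15) than there were SSDs. In the same order of chromosomes, post-LBC type 2 had 17, 14, 13 and 19, and LBC type 2 had 23, 19, 15 and 18.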

How the data were processed

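Single-nucleus Hi-C reads of 25 chicken oocyte nuclei were trimmed with cutadapt per the labels, and, by the study's methods, aligned to ASM2420605v2 with juicer, stored with cooler and pooled by stage and type. The authors called domains with lavaburst, which divides a chromosome so as to maximise a domain score under a size parameter, and refined the LBC type 1 list by hand. The deposited lists give starts and ends of domains in bp, with no score or count, so depth is unknown from them. The paper has library statistics of single nuclei, which were not used here. The methods name a resolution of 20 kb, whereas the automatic lists lie on a 16 kb grid and hold no domain of 200 kb or less. Such limits, and the size parameter, can set which SSDs appear single, joined or divided.

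The 5 lists were compared in Python 3.11.15 with numpy 2.4.6, pandas 2.3.3 and scipy 1.17.1, and plotted with matplotlib 3.10.9. Nuclei were grouped by the stage and type in their labels. Fates and runs were computed as defined above, with an 80 kb tolerance. SSDs and LUDs were compared by two-sided Fisher's exact tests at a threshold of 0.05, 9 of fates with Benjamini-Hochberg adjustment and 1 of position. No test between maps was made. The classification was tested on simulated lists of single, joined and divided domains, all over 400 kb long. Their boundaries were shifted by less than the tolerance. Shorter SSDs, redrawn domains and larger shifts were thus not covered. Alternatives were other tolerances, thresholds and end windows, and leaving out chromosomes, short, terminal or overlapping domains.

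The SSDs, the regions named and the tests were chosen with earlier results of these data known. Named by rule were the shortest SSD, those at the threshold, the longest runs, SSDs with the most constant ends, the domains that joined the most SSDs, and the longest SSDs divided or joined in all 3 other maps. Sequence and genes were not analysed here, since no genome or annotation of ASM2420605v2 was used.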

Additional observations from a re-analysis of the deposited data

How the results depend on the processing

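The 9 comparisons of SSDs with LUDs, of which the 3 of joined shares are bounded by length and are given as counts only, were recomputed under 38 other settings, 336 values in all, and 335 kept their direction and their side of the threshold. These were tolerances of 20, 40 and 160 kb, SSD thresholds of 1 and 2 Mb, domains left out (up to 200 kb, terminal, overlapping), macrochromosomes and Z only, single by reciprocal overlap of at least 80%, LUDs within reach (chosen after seeing the data) and each of 27 chromosomes left out. In all of them SSDs and LUDs were still told apart by length alone. Of the 38 settings, 27 only left out 1 chromosome each, and all reuse the same domains. The count of 335 is thus no measure of independent support. The exception was the divided share in LBC type 2, which with a tolerance of 20 kb differed by -2.98 percentage points, SSDs minus LUDs (Fisher's exact test, adjusted p = 0.0732). Position passed the test with a threshold of 1 Mb (difference 9.59 points) and with domain middles (6.05 points), against 5.18 points as reported, and not with the other 5 settings (4.21 to 6.29 points).

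The number of runs was 89 and the longest run 53 with a threshold of 2 Mb, and 21 runs had 5 or more SSDs with a threshold of 1 Mb. With runs also ended by gaps over 80 kb there were 187. The tolerances for counts of SSDs were added after seeing the data. With 20, 40 and 160 kb, single SSDs numbered 30, 46 and 130 in LBC type 2, and with 20 and 40 kb 60 and 92 in post-LBC type 2. Divided SSDs numbered 25, 33 and 111 in LBC type 2 with 20, 40 and 160 kb, 20 and 29 in post-LBC type 2 with 20 and 40 kb, and 21 in post-LBC type 1 with 20 kb. The other 34 of 45 added values stayed within 1.5 times the reported count or on the same side of the threshold.

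No paired analysis was possible because each list pools all nuclei of its group, and no nucleus was left out for the same reason. Depth is unknown from these lists, post-LBC type 2 rests on 1 nucleus, and the error of the manual step was not measured.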
